A study of Homo sapiens with 22 samples.

Results

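The genes described here are 38 members of the 4 human HOX clusters, chosen by name among the 63677 genes of the deposited tables. They comprise 10 HOXA, 10 HOXB, 9 HOXC and 9 HOXD genes. SH-SY5Y is a human neuroblastoma cell line. It was measured by total RNA sequencing in monolayers at day 7 of retinoic acid culture and at day 0, in lines carrying a lentiviral shRNA against the CASC15-003 isoform of the long non-coding RNA CASC15 (3 libraries at day 7 and 3 at day 0), against the CASC15-004 isoform (2 and 2), or a scrambled control shRNA (2 and 3). All of these lines, controls included, were puromycin-selected. The 5 sphere cultures of the same lines (2 CASC15-003, 2 CASC15-004 and 1 control) and 2 libraries of KELLY, another neuroblastoma line, with a SOX9 siRNA or a control siRNA, bring the total to 22 libraries.

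The labels give retinoic acid as 10 mM for 7 days. They put day 7 cells in medium with 1% serum in one field and 10% in another, and day 0 cells in 10%. No day 7 library without retinoic acid was analysed here, so retinoic acid, 7 days of culture and the change of serum cannot be told apart. One CASC15-003 library titled day 7 (replicate 1) and one titled day 0 (replicate 2) carry a culture field that contradicts their title and time point. CYP26A1, which encodes a retinoic acid-degrading enzyme and is a known target of retinoic acid, stood at 687 RPKM in the first and at 0.199 RPKM in the second (RPKM is reads assigned to a gene, scaled to its length and to the library's assigned reads). Both were grouped by title, and results are also given without them.

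HOX genes encode homeodomain transcription factors that give cells their position along the body axis. Within a cluster the genes lie in the order in which they act from head to tail, with low numbers at the head end, and low-numbered genes respond first to retinoic acid in embryonic cells. Retinoic acid binds the receptors RARA, RARB and RARG, which pair with RXR proteins on DNA, while Polycomb complexes keep unused HOX genes silent and TALE proteins of the PBX and MEIS families bind DNA with HOX proteins.

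The proximal promoters of the HOXD genes that were higher at day 7 are shown. Levels were per gene, so the start sites in use were not measured. Each promoter window is 300 bases around the RefSeq start site, from the GRCh38.p14 build, on the + strand. Capitals mark matches to the retinoic acid receptor half-site, searched on both strands in its consensus form AGGTCA, in the variant AGTTCA with a changed middle, in the variant GGGTCA with a changed first base and in the form GGTTCA that has both changes, and to the PBX-HOX site searched as TGATNNAT. HOXD9 is not in the table used.
HOXD1, chr2:176188418-176188717: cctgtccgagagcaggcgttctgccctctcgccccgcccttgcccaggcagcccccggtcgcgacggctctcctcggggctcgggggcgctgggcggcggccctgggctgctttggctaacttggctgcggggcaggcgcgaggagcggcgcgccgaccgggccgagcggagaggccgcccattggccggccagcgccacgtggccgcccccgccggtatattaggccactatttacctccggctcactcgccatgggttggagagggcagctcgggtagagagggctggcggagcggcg
HOXD3, chr2:176157057-176157356: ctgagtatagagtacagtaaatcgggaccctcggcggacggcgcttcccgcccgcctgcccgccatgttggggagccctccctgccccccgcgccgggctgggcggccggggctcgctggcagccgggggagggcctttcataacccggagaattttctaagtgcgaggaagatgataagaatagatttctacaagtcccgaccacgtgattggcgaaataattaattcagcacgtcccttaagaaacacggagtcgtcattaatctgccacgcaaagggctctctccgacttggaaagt
HOXD4, chr2:176151300-176151599: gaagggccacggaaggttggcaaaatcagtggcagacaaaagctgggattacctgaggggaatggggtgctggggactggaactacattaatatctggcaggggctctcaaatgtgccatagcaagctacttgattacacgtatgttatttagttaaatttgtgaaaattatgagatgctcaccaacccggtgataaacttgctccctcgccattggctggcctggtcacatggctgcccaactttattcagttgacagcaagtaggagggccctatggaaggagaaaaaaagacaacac
HOXD8, chr2:176129455-176129754: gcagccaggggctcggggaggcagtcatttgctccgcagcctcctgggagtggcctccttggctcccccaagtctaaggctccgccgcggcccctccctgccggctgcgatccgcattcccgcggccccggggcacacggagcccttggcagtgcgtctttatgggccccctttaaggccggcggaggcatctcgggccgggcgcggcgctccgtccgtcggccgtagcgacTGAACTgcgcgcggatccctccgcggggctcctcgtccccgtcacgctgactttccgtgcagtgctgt

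HOXD8 held 1 half-site, on the reverse strand, and the HOXD1, HOXD3 and HOXD4 windows held none. RefSeq entries were matched for 20 of the 38 members, 27 windows in all. AGGTCA was in windows of 0 of these 20 genes, against 13.8% of all 35093 promoters in the table. Any of the 4 half-sites was present for 8 of the 20 genes (38.6% of all promoters). A direct repeat of half-sites spaced by 1, 2 or 5 bases was present for 0 (0.259% of all promoters), and TGATNNAT for 3 (7.40%), namely HOXD11, HOXA2 and HOXB1. These counts describe letters in a short window, and a gene with several windows had more chances to match.

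Library depth, as reads recovered from the RPKM values, was 11.9 to 16.5 M in the 4 batch 1 monolayers, 25.1 to 37.9 M in the other 11 monolayers and up to 62.1 M in spheres. Batch 1 stood apart from the other batches across genes: 166 genes were listed at 0 in all 4 of its libraries and at 1 RPKM or more in all 11 others, and 311 genes the other way round. An exact 0 in these tables means 0 assigned reads, and such zeros can follow the batch. A gene listed at 0 is therefore not shown to be silent. PBX2, RXRB and RING1, which enter the list counts below, were at 0 in all 4 batch 1 libraries. No tested HOX gene had a 0 in any monolayer. The retinoic acid label was checked with RARB, a receptor gene that retinoic acid is known to induce: it reached 30.0 to 77.2 RPKM in the 7 day 7 libraries, against 0.797 to 4.43 RPKM in the 8 day 0 libraries. CASC15 as a whole gene stood at 2.08, 3.27 and 3.38 RPKM in CASC15-003 cells, 1.31 and 1.48 RPKM in CASC15-004 cells and 3.33 and 3.26 RPKM in controls at day 7, and at 2.65, 1.95 and 1.57 RPKM in CASC15-003 cells, 1.16 and 1.14 RPKM in CASC15-004 cells and 1.52, 1.31 and 2.38 RPKM in controls at day 0; a gene total does not check an isoform knockdown. Of the adrenergic neuroblast markers HAND2 was at 145 to 291 RPKM and GATA3 at 14.4 to 156 RPKM in the monolayers, TH was at 0 to 1.57 RPKM, and of the mesenchymal markers VIM was at 30.7 to 222 RPKM, FN1 at 8.80 to 42.9 RPKM and COL1A1 at 1.497 to 12.2 RPKM, while PRRX1 was at 0 to 0.0812 RPKM. Replicates are separate batches or separate shRNAs of 1 line each, and p-values measure only the spread between them. All CASC15-004 monolayers were of batch 2, while controls and CASC15-003 cells came from batches 1 to 3. Batch 3 held day 0 libraries only. Without a batch block, batch is therefore partly mixed with line and with time.

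The HOXA and HOXB genes were listed at or near 0 in every library. The highest level of any HOXA gene was 0.682 RPKM (HOXA5) and of any HOXB gene 0.724 RPKM (HOXB7), and all 20 of these genes stayed under 1 RPKM. HOXA9 and HOXB1 were listed at 0 in all 22 libraries. Summed over its 9 members, HOXC stood at 17.1 to 24.9 RPKM at day 7, against 13.8 to 22.4 RPKM at day 0. The 9 HOXD genes summed to 46.7 to 73.4 RPKM at day 7, against 18.04 to 29.1 RPKM at day 0. The HOXD sums of the 2 times did not overlap, while those of HOXC did.

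**Figure D1:**
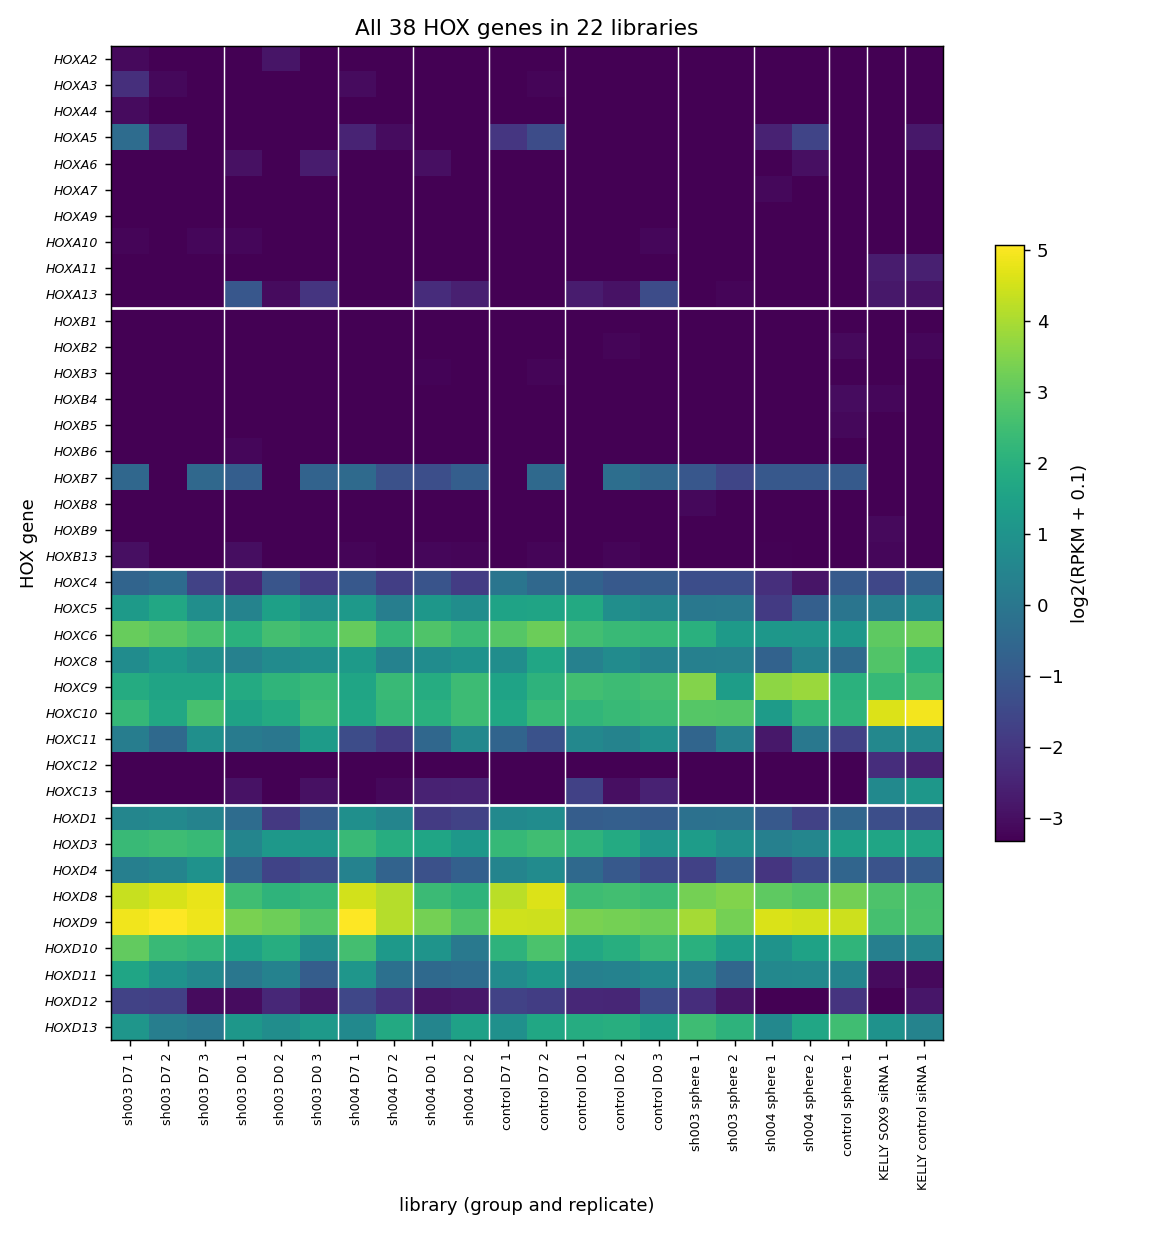
Level of each of the 38 HOX genes (rows, by cluster) in each of the 22 libraries (columns, by group; sh003 and sh004 are the CASC15-003 and CASC15-004 lines in all plots), as log2(RPKM + 0.1) on the color scale. HOXA and HOXB rows are dark throughout, and the HOXD8 and HOXD9 rows are brightest at day 7, where they reached 27.4 and 33.4 RPKM.

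HOXD8 was the member with the largest change in each line. In CASC15-003 cells it stood at 20.4, 23.7 and 27.4 RPKM at day 7, against 5.60, 4.27 and 4.68 RPKM at day 0. In CASC15-004 cells it stood at 22.4 and 17.3 RPKM at day 7, against 5.13 and 4.26 RPKM at day 0, and in controls at 18.2 and 24.4 RPKM at day 7, against 5.38, 5.63 and 5.13 RPKM at day 0. Every day 7 library was above every day 0 library. The share of all genes tested whose times did not overlap, over all libraries or within a line, was not computed, here or below. The fitted log2 change was 2.18 ± 0.16 in CASC15-003 cells (SE, limma adjusted p = 8.78e-05), 1.96 ± 0.20 in CASC15-004 cells (adjusted p = 0.00167) and 1.88 ± 0.18 in controls (adjusted p = 0.00104). These values are on the log2(RPKM + 0.5) scale, as are all fitted changes below.

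HOXD9, its neighbor toward the tail end of the cluster, had the highest mean of the members over the 15 monolayers, although HOXD8 was above it in control day 7 replicate 2. It stood at 29.7, 32.7 and 29.1 RPKM at day 7 in CASC15-003 cells, against 10.3, 9.25 and 7.01 RPKM at day 0. In CASC15-004 cells it stood at 33.4 and 17.6 RPKM at day 7, against 9.90 and 6.63 RPKM at day 0, and in controls at 21.9 and 21.4 RPKM at day 7, against 10.4, 9.75 and 9.27 RPKM at day 0. The times did not overlap in any line. HOXD9 rose in CASC15-003 cells (log2 change 1.75 ± 0.22, limma adjusted p = 0.0027) and in CASC15-004 cells (1.52 ± 0.27, adjusted p = 0.0452). In controls the change was 1.11 ± 0.25 with a limma adjusted p of 0.0738, and 0.0324 with batch as a block. The blocked control call was lost without any single control day 0 library, and without either control day 7 library, which leaves 1 library there. It was also lost without CASC15-003 day 0 replicate 1, day 0 replicate 3 or day 7 replicate 2. Voom, leaving out the contradicting CASC15-003 libraries, and leaving out batch 1 also removed it. HOXD9 was called in controls in 6 of 30 alternatives. The CASC15-004 call was lost in 18 of the 30 alternatives run, with adjusted p up to 0.473. In the CASC15-004 day 7 library with the lower value (replicate 2), CYP26A1 was 9.001 RPKM, against 221 to 687 RPKM in the other day 7 libraries; its part in the HOX levels was not tested.

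**Figure D2:**
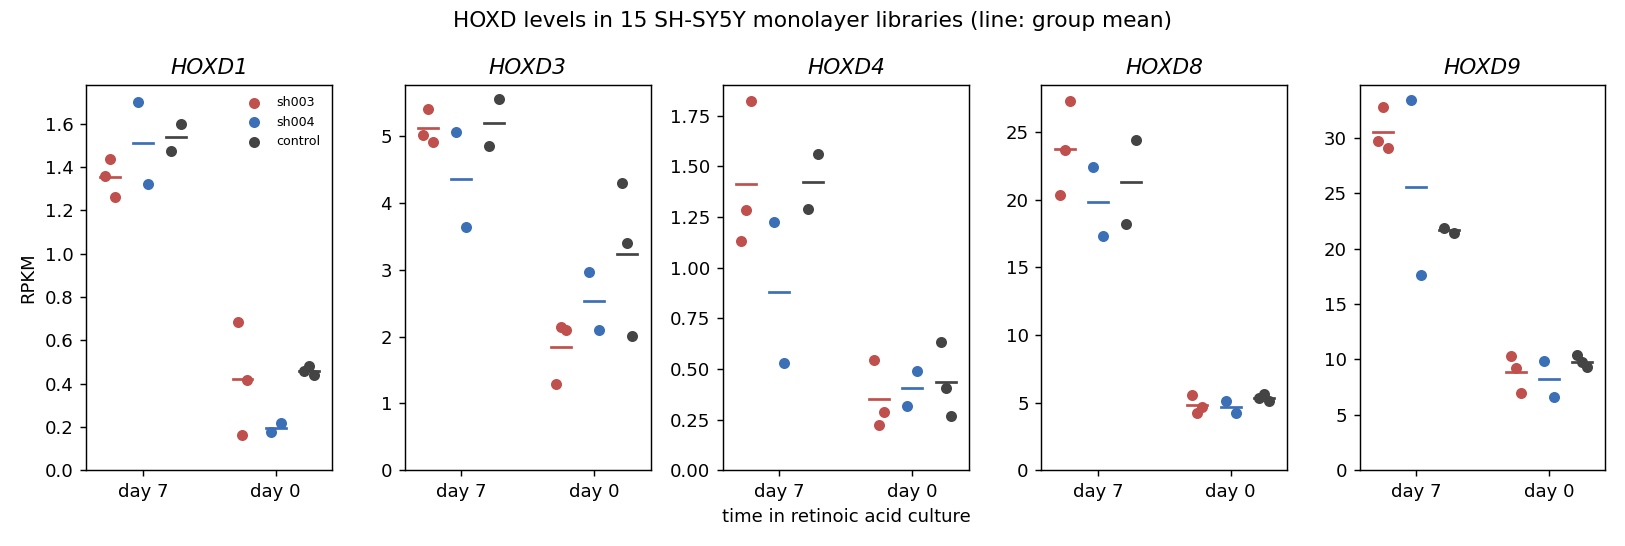
RPKM of 5 HOXD genes in the 15 monolayer libraries, with day 7 left of day 0; points are libraries, colors are lines and short bars are group means. For HOXD8 the 7 day 7 libraries lie between 17.3 and 27.4 RPKM, all above the day 0 libraries.

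The genes at the head end of HOXD were lower in level. HOXD3 stood at 5.02, 5.41 and 4.92 RPKM at day 7 in CASC15-003 cells, against 1.30, 2.14 and 2.09 RPKM at day 0, and rose there (log2 change 1.28 ± 0.25, limma adjusted p = 0.0251), a call lost in 10 of 30 alternatives with adjusted p up to 0.129. It stood at 5.06 and 3.65 RPKM at day 7 in CASC15-004 cells, against 2.97 and 2.10 RPKM at day 0, and at 4.85 and 5.55 RPKM at day 7 in controls, against 4.30, 3.41 and 2.01 RPKM at day 0. Those changes were 0.68 ± 0.31 (limma adjusted p = 0.608) and 0.66 ± 0.28 (adjusted p = 0.324). Within each line the times did not overlap, although with 2 libraries at each time in CASC15-004 cells that shows little.

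HOXD1, the first gene of the cluster, stood at 1.36, 1.44 and 1.26 RPKM at day 7 in CASC15-003 cells, against 0.687, 0.163 and 0.417 RPKM at day 0. In CASC15-004 cells it stood at 1.70 and 1.32 RPKM at day 7, against 0.177 and 0.218 RPKM at day 0, and in controls at 1.48 and 1.60 RPKM at day 7, against 0.456, 0.480 and 0.441 RPKM at day 0. All 7 day 7 libraries were above all 8 day 0 libraries. HOXD1 reached 1 RPKM, the level needed in 2 libraries for a test, at day 7 only. Its log2 changes of 1.05 ± 0.25, 1.52 ± 0.30 and 1.09 ± 0.28 in CASC15-003, CASC15-004 and control cells missed the threshold (limma adjusted p = 0.0539, 0.0753 and 0.109), and passed it with batch as a block (adjusted p = 0.00749, 0.00824 and 0.0135). The blocked call was lost in CASC15-003 cells without day 0 replicate 3 and without the contradicting libraries, in CASC15-004 cells without either day 0 library, in controls without either day 7 library, and in all 3 lines without batch 1.

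HOXD4 stood at 1.13, 1.29 and 1.82 RPKM at day 7 in CASC15-003 cells, against 0.543, 0.226 and 0.289 RPKM at day 0. It stood at 1.22 and 0.531 RPKM at day 7 in CASC15-004 cells, against 0.319 and 0.490 RPKM at day 0, and at 1.29 and 1.56 RPKM at day 7 in controls, against 0.632, 0.408 and 0.269 RPKM at day 0. The times were apart within each line, narrowly in CASC15-004 cells. HOXD4 also reached 1 RPKM at day 7 only. It passed the test with the batch block in CASC15-003 cells (log2 change 1.17 ± 0.27, limma adjusted p = 0.0223, and 0.0626 without the block). The blocked call was lost without replicate 2 or replicate 3 of either time, without the contradicting libraries and without batch 1. HOXD4 was called there in 7 of 30 alternatives.

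Of the 38 members, 14 passed the filter of 1 RPKM in 2 libraries, 6 HOXC and 8 HOXD genes. Since a gene high in 1 group alone can pass, these 14 are not all members. HOXD1 and HOXD4 were under 1 RPKM in every day 0 library and passed through day 7 libraries alone. Their calls, and their part in the counts and the median below, thus rest on a filter that favored genes higher at day 7. In CASC15-003 cells 3 of the 14 were called higher at day 7 (HOXD3, HOXD8 and HOXD9), beside 1.57% of all 19461 genes tested, and 5 with batch as a block (HOXD1 and HOXD4 added), beside 8.65%. In CASC15-004 cells 2 were called higher (HOXD8 and HOXD9), beside 0.252%, and 3 with the block (HOXD1 added), beside 1.42%. In controls 1 was called higher (HOXD8), beside 0.704%, and 3 with the block (HOXD1 and HOXD9 added), beside 5.03%. Without the 2 CASC15-003 libraries whose labels contradict, 2, 1 and 1 members were called higher in CASC15-003, CASC15-004 and control cells, and 2, 2 and 2 with the block. Without the 4 batch 1 libraries only HOXD8 was called in each line, and with the block it was no longer called in controls, which then had 1 library at day 7. The median log2 change of the 14 was 0.73, 0.38 and 0.50 in CASC15-003, CASC15-004 and control cells, beside 0.05, 0.02 and 0.15 over all genes tested.

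No member was called lower at day 7 by limma in any line or by voom on the recovered reads. The share of all genes called lower was 0.786% in CASC15-003 cells (5.63% with the block), 0.128% in CASC15-004 cells (0.683%) and 0.252% in controls (2.65%). At an unadjusted p under 0.05, 0, 1 and 2 members were lower in CASC15-003, CASC15-004 and control cells: HOXC11 in CASC15-004 cells and in controls, and HOXC9 in controls. In the same order 8, 5 and 6 members were higher. The share of all genes at this unadjusted threshold was not computed, here or below. HOXC11 had log2 changes of -0.20 ± 0.35, -0.98 ± 0.43 and -1.05 ± 0.39 in the 3 lines (limma adjusted p = 0.9, 0.589 and 0.255).

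**Figure D3:**
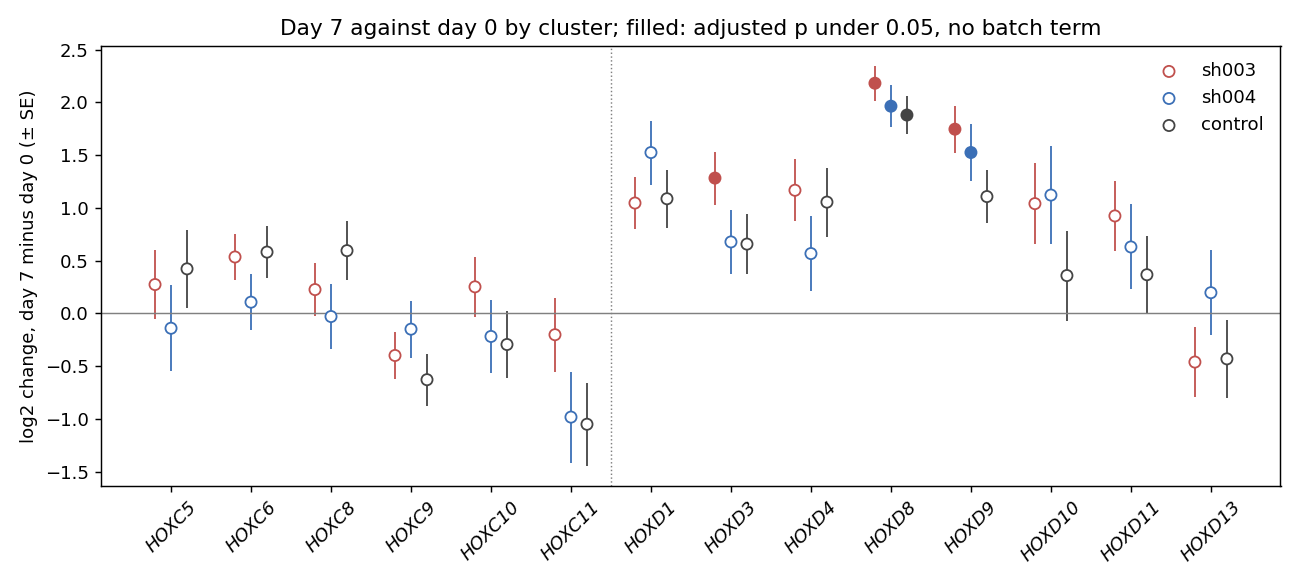
Fitted log2 change at day 7 minus day 0 (y axis, bars are SE) of the 14 HOX genes tested, in cluster order, for the 3 lines. Filled points passed an adjusted p of 0.05: HOXD8 in all 3 lines, HOXD9 in CASC15-003 and CASC15-004 cells and HOXD3 in CASC15-003 cells.

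The remaining HOXD genes tested differed in the sign of their fitted changes. HOXD10 stood at 8.17, 5.10 and 4.52 RPKM at day 7 in CASC15-003 cells, against 2.66, 3.68 and 1.62 RPKM at day 0. It stood at 5.80 and 2.15 RPKM at day 7 in CASC15-004 cells, against 1.95 and 0.943 RPKM at day 0, and at 4.16 and 6.32 RPKM at day 7 in controls, against 3.16, 3.69 and 5.05 RPKM at day 0. The times overlapped in controls and were apart in both knockdowns, and no line passed the test (log2 changes 1.04 ± 0.38, 1.12 ± 0.47 and 0.36 ± 0.43 in CASC15-003, CASC15-004 and control cells; limma adjusted p = 0.166, 0.557 and 0.831). HOXD11, which shares 452 exon bases with HOXD10 in GENCODE 29, had log2 changes of 0.92, 0.63 and 0.37 in the same order. HOXD13, the last gene of the cluster, had changes of -0.46 ± 0.33, 0.20 ± 0.40 and -0.43 ± 0.37, none past the test.

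In the HOXC cluster HOXC6 had the highest mean over the 15 monolayers, although HOXC9 was above it in all 3 control day 0 libraries. It stood at 8.63, 7.41 and 6.02 RPKM at day 7 in CASC15-003 cells, against 4.05, 5.74 and 4.98 RPKM at day 0. It stood at 8.41 and 4.72 RPKM at day 7 in CASC15-004 cells, against 6.59 and 5.17 RPKM at day 0, and at 7.06 and 8.96 RPKM at day 7 in controls, against 5.63, 5.09 and 4.78 RPKM at day 0. The times overlapped in CASC15-004 cells only, and the log2 changes of 0.53 ± 0.22, 0.11 ± 0.27 and 0.58 ± 0.24 did not pass (limma adjusted p = 0.213, 1 and 0.312 in CASC15-003, CASC15-004 and control cells).

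HOXC9 stood at 3.45, 2.89 and 2.88 RPKM at day 7 in CASC15-003 cells, against 3.39, 4.37 and 4.97 RPKM at day 0. It stood at 2.97 and 5.01 RPKM at day 7 in CASC15-004 cells, against 3.55 and 5.31 RPKM at day 0, and at 2.83 and 4.15 RPKM at day 7 in controls, against 5.66, 5.26 and 5.86 RPKM at day 0. Only in controls were the times apart, with day 7 the lower. HOXC10 stood at 4.74, 3.18 and 6.03 RPKM at day 7 in CASC15-003 cells, against 2.73, 3.40 and 5.43 RPKM at day 0, and overlapped. It stood at 3.06 and 4.70 RPKM at day 7 in CASC15-004 cells, against 3.88 and 5.23 RPKM at day 0, and at 3.07 and 4.94 RPKM at day 7 in controls, against 4.48, 4.97 and 5.31 RPKM at day 0, and overlapped in both. HOXC5 and HOXC8 had log2 changes between -0.14 and 0.59. HOXC4, HOXC5, HOXC6 and HOXC9 share exon sequence with neighbors, so their counts are uncertain where reads fell in shared exons.

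A total of 6 pairs of day 7 and day 0 libraries shared an shRNA and a batch. HOXD1, HOXD3, HOXD4, HOXD8, HOXD9, HOXD10 and HOXD11 were higher at day 7 in 6 of 6 pairs, with HOXD8 differing by 1.67 to 2.43 and HOXD9 by 1.04 to 1.98 on the log2(RPKM + 0.5) scale. HOXC9 and HOXC11 were lower in 6 of 6 pairs, with differences of -0.08 to -0.89 for HOXC9 and -0.32 to -1.50 for HOXC11. HOXC10 was lower in 5 pairs and HOXD13 in 4. The same counts were not made over all genes tested, so they do not set these members apart from other genes. Both CASC15-004 pairs were of batch 2. The batch 1 CASC15-003 pair used the day 0 library (replicate 2) whose culture field contradicts its title.

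**Figure D4:**
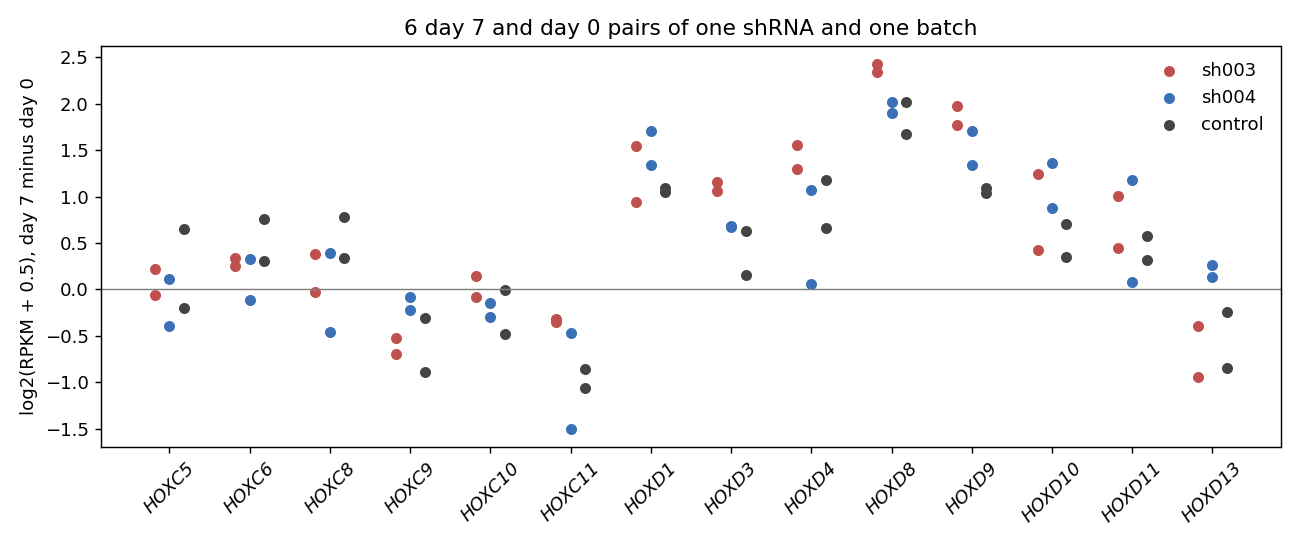
Difference in log2(RPKM + 0.5) between day 7 and day 0 (y axis) in 6 pairs of libraries of 1 shRNA and 1 batch, for the 14 HOX genes tested; each point is a pair. All 6 HOXD8 pairs lie between 1.67 and 2.43, and all 6 HOXC11 pairs lie below 0.

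The other 24 members did not pass the filter. HOXA13, the tail-end gene of HOXA, was listed at 0 in all 7 day 7 libraries. It had 135 reads over all 8 day 0 libraries, where its highest level was 0.384 RPKM. Of these reads, 45 were in CASC15-003 day 0 replicate 1 and 37 in control day 0 replicate 3. Both libraries are of batch 3, which has no day 7 library. HOXC13 had 1 read over the 7 day 7 libraries, against 29 reads in 7 of 8 day 0 libraries. HOXA5, a gene of the middle of its cluster, had 66 reads in 6 of 7 day 7 libraries, 38 of them in CASC15-003 replicate 1, and was listed at 0 in the 8 day 0 libraries. HOXA3 had 22 reads in 4 day 7 libraries, 17 of them in that same library, against 0 at day 0. With the filter lowered to 0.1 RPKM, HOXA5 and HOXA13 had limma adjusted p of 0.48 and 0.613 in controls and 0.413 and 0.326 in CASC15-003 cells, and 1 for both in CASC15-004 cells.

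HOXB7 was listed at 0 in each of the 4 batch 1 libraries, against 13 to 37 reads in each of the other 11 monolayers, on both days; the part of the batch in this was not tested. HOXC4 reached 0.860 RPKM and HOXD12 0.273 RPKM. The highest levels of the other members in any of the 22 libraries were 0.0399 RPKM for HOXA2, 0.0175 for HOXA4, 0.0548 for HOXA6, 0.0134 for HOXA7, 0.0107 for HOXA10, 0.0681 for HOXA11, 0.0149 for HOXB2, 0.00828 for HOXB3, 0.0206 for HOXB4, 0.0126 for HOXB5, 0.00975 for HOXB6, 0.0144 for HOXB8, 0.0154 for HOXB9, 0.0265 for HOXB13 and 0.112 for HOXC12 (RPKM in each case).

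CASC15 knockdown called no HOX member. With CASC15-003 shRNA against control, 0 of 14 were called by limma at day 0 (0.00514% of all genes, and 0.252% with the block) and 0 at day 7 (0% and 0.00514%). With CASC15-004 shRNA, 0 were called at day 0 (0% and 0%) and 0 at day 7 (0% and 0.226%). Voom on the recovered reads also called 0 in each. At an unadjusted p under 0.05 the only members were HOXD3, lower in CASC15-003 cells at day 0 (log2 difference -0.65 ± 0.25, limma adjusted p = 0.789), and HOXD10, lower in CASC15-004 cells at day 0 (-1.23 ± 0.43, adjusted p = 1), with HOXD13 added under the block (-0.89 ± 0.39). The day 7 change differed from that of controls for 0 members with CASC15-003 (0% of all genes, and 0% with the block) and for 0 with CASC15-004 (0% and 0.0103%). At an unadjusted p under 0.05 the difference for HOXD3 with CASC15-003 passed in the blocked fit alone (0.64 ± 0.25, limma adjusted p = 1). With groups of 2 and 3 libraries these tests do not show that the lines respond alike.

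Transcripts from within the clusters and the partners of HOX proteins were listed as well. Of 28 listed HOX cluster non-coding RNAs, 5 were tested; HAGLR, which is transcribed antisense beside HOXD1 and HOXD3, rose in CASC15-003 cells (log2 change 1.21 ± 0.21, limma adjusted p = 0.0157). In controls it changed by 1.09 ± 0.20 with the batch block (adjusted p = 0.0157; 0.0797 without). HAGLR shares 158 exon bases with HOXD1 and 134 with HOXD3 on the opposite strand, and the strand setting of the counting is not given in the sources used here, so reads in shared bases cannot be told apart. HOTAIR, transcribed from HOXC, had log2 changes of -0.58, -1.35 and -1.72 in CASC15-003, CASC15-004 and control cells, none past the test.

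The list counts below stand beside shares of all genes called higher of 1.57%, 0.252% and 0.704% in CASC15-003, CASC15-004 and control cells (8.65%, 1.42% and 5.03% with the block) and called lower of 0.786%, 0.128% and 0.252% (5.63%, 0.683% and 2.65%). Of 8 HOX cofactors tested, 2, 0 and 1 were called higher at day 7 in CASC15-003, CASC15-004 and control cells, and 4, 2 and 3 with the batch block; 0 were called lower. MEIS2 rose in controls by 0.79 ± 0.13 (limma adjusted p = 0.0155), and MEIS3 passed there only with the block (0.75 ± 0.14; adjusted p = 0.014). Of 14 retinoid receptors and upstream regulators tested, 5 were called higher in each line, and 2, 1 and 1 lower; with the block 7, 5 and 6 were higher and 2, 1 and 1 lower. Those called higher in controls were CYP26B1 (log2 change 10.40), CYP26A1 (8.57), DHRS3 (6.01), CRABP2 (4.66) and RARB (4.37), which act in retinoid breakdown, binding and signaling. Of 21 chromatin regulators of HOX tested, 1, 0 and 0 were called higher and 0 lower; with the block 3, 0 and 0 were higher and 3, 0 and 2 lower, and those in controls included the Polycomb subunit gene CBX2 (-1.11 ± 0.21, limma adjusted p = 0.0171). Of 6 adrenergic markers tested, 0 were called in any line without the block, and with it 3, 1 and 1 were lower, GATA3 in all of them. Of 4 mesenchymal markers tested 0 were called. In bulk RNA, fewer cells of a type and less RNA per cell cannot be told apart.

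Spheres held a HOX pattern of the same clusters, and were measured in a separate table, so their levels are set beside the monolayers with no test. The 9 HOXD genes summed to 39.1 and 31.2 RPKM in CASC15-003 spheres, 38.3 and 38.4 RPKM in CASC15-004 spheres and 46.3 RPKM in the control sphere. HOXD9 stood at 15.2 and 9.93 RPKM in CASC15-003, 24.0 and 22.4 RPKM in CASC15-004 and 21.5 RPKM in control spheres. HOXC9 stood at 11.2 and 2.47 RPKM in CASC15-003, 12.4 and 13.7 RPKM in CASC15-004 and 4.02 RPKM in control spheres, so that the CASC15-003 pair lay on both sides of the control. RARB was 5.32 to 10.8 RPKM in the spheres. All 38 members summed to a mean of 57.8 RPKM over the 5 spheres.

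KELLY cells were compared as 1 library with SOX9 siRNA and 1 with control siRNA, so the differences have no replicate check. SOX9, the targeted gene, stood at 0.974 RPKM with SOX9 siRNA, against 5.61 RPKM with control siRNA, and MYCN, the amplified gene of this line, at 1052 and 787 RPKM. HOXC10 was the most abundant member, with 24.5 RPKM with SOX9 siRNA against 30.5 RPKM with control siRNA (log2 read ratio -0.31, exact 95% interval -0.42 to -0.21). HOXC8 stood at 6.80 RPKM with SOX9 siRNA against 3.83 RPKM with control siRNA (0.83, interval 0.63 to 1.03), and HOXD13 at 1.82 against 1.26 RPKM (0.53, interval 0.08 to 0.99). Among the 12 members at 1 RPKM or more in either library, 2 had an interval above 0 and 3 below 0. The share of all genes with such an interval was not computed, so these counts are no result about HOX genes as a set. The median log2 ratio was -0.11, beside 0.05 over 14340 genes at that level. HOXC13 stood at 1.47 and 2.09 RPKM in the 2 KELLY libraries, and HOXD11 at 0.0177 and 0.0167 RPKM. The intervals cover counting error only.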

How the data were processed

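The authors deposited 3 tables of RPKM per gene; TopHat, featureCounts, Subread and hg19 are named per the submitters' processing notes, without versions or the strand setting. Whole reads were recovered from the RPKM steps (largest distance from a whole number 1.88e-07 reads). The sphere table divides by 10 totals in rotation, of which 5 are sphere library totals, so sphere RPKM were recomputed on each library's own total. All 22 RPKM columns were mapped to a sample; the remaining column is gene length. Members were matched by symbol (38 of 38). The members and gene lists were chosen with earlier results of these data known. Each tested member was named, with values per library for those called at day 7 in any line and the 4 other most abundant. Some listed genes that the naming rule covers are not reported here.

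Monolayers (15 libraries, 6 groups) were fitted with limma 3.58.1 (R 4.3.3) on log2(RPKM + 0.5) for genes at 1 RPKM in 2 libraries, with Benjamini-Hochberg adjustment over 19461 genes and a threshold of 0.05, and tested on simulated data. Batch numbers come from the titles, and batch was also fitted as a block. Deviations of control and CASC15-003 libraries of one batch correlated at 0.80 to 0.942, those of different batches at -0.92 to 0.549. Deviations within a group cancel out, so negative values were partly forced. With 2 day 7 controls, each negative value mirrored a positive one. At day 0, batches 2 and 3 correlated with each other at 0.549 and 0.536, and within themselves at 0.802 and 0.811. Batch 1 correlated with them at -0.777 to -0.815. These values set batch 1 apart, but do not show that each number marks a shared batch. Alternatives were other pseudocounts, filters and scalings, voom on recovered reads, and leaving out libraries. Intervals are exact Clopper-Pearson (Python 3.11.15, scipy 1.17.1). RefSeq promoters and GENCODE 29 exons are from GRCh38; no coordinates were converted.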

Additional observations from a re-analysis of the deposited data

Results flagged for a closer look

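HOXD13 differed between lines in the sign of its pairs, while its change passed the test in none of them. Its 6 pairs of day 7 and day 0 libraries of one shRNA and batch were lower at day 7 in both CASC15-003 pairs and both control pairs, and higher in both CASC15-004 pairs. The mean log2 difference between the control and CASC15-004 pairs, control minus CASC15-004, was -0.74, and that between the CASC15-003 and CASC15-004 pairs, CASC15-003 minus CASC15-004, was -0.86. The first was also tested as a difference of changes, CASC15-004 minus control: it was 0.63 ± 0.55 (limma adjusted p = 1), and 0.67 ± 0.53 with the batch block (adjusted p = 0.994). The second was not tested.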

How the results depend on the processing

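The count of HOX genes called higher in controls was 1; with the batch as replicate block it was 3, also with the lower filter, median-ratio scaling or pseudocount 0.1, and 2 with voom or without the contradicting CASC15-003 libraries. In CASC15-003 cells 3 became 5 with the block, also with the lower filter, voom, median-ratio scaling or pseudocount 0.1. In CASC15-004 cells 2 became 1 with a filter of 0.1 RPKM, with no filter and without the contradicting libraries. Without the batch 1 libraries the counts were 1, 1 and 1 in CASC15-003, CASC15-004 and control cells, and 1, 1 and 0 with the block. Leaving out one library at a time gave 2 to 4, 1 to 3 and 1 to 2 in CASC15-003, CASC15-004 and control cells. The 1 in CASC15-004 cells arose without any single library other than CASC15-003 day 0 replicates 1 and 3 and CASC15-004 day 7 replicate 2, and the 2 in controls without either CASC15-004 day 7 library. In the blocked fit the same gave 2 to 7, 1 to 4 and 1 to 4; the 2 arose without CASC15-003 day 0 replicate 3. The cause was not tested. The blocked combinations other than the lower filter, and the batch 1 alternative, were chosen after seeing the data. HOXD8 was called in 30, 30 and 29 of 30 alternatives in the 3 lines, and HOXD1, HOXD3, HOXD4, HOXD8 and HOXD9 kept their direction in the lines where each was called; other genes were not followed across alternatives. The counts of 0 for lower genes and for knockdown stayed 0 in every alternative. Sphere sums averaged 61.0 RPKM as deposited, and the KELLY median was -0.14 with a pseudocount of 0.1. Depth, and values of 0 that do not show a gene to be silent, limit the members under 1 RPKM.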
